A study of Drosophila melanogaster with 2 samples.

Results

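The peaks of CkIIalpha-i1 on the X chromosome of the fruit fly Drosophila melanogaster were taken as every entry of the pooled thresholded peak list that lay on the X arm or on an unplaced contig assigned to the X. The rule used position alone. It found 217 of the 944 peaks of that list (23.0%), of which 196 lay on the X arm and 21 on 17 X contigs. The other 727 peaks lay on the autosomal arms. The study held 1 group, whole embryos of 0 to 18 hours from a strain named CkIIalpha-i1-GFP, in 2 biological replicates. The labels describe transgenic flies expressing CkIIalpha-i1-eGFP fusion proteins. Chromatin was precipitated through an antibody against the fluorescent tag. No untagged or otherwise different group was analysed here, and the sex of the embryos is not given in the labels. Whole embryos pool all cell types of many stages, so a peak cannot be assigned to a cell type.

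CkIIalpha-i1 takes its name from an interaction with the alpha subunit of casein kinase II, a protein kinase with very many substrates. The X is the sex chromosome that female flies carry as a pair and male flies carry singly. Males raise the output of their X through the MSL complex, which holds the roX RNAs and the acetyltransferase mof, and which binds GA-rich elements together with the adaptor protein CLAMP. Sxl, the switch gene of fly sex determination, also lies on the X.

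The sequences at the summits of the 4 strongest X arm peaks are shown because these were the sites that ranked highest in both replicates. They are 101 bases each, centred on the summit, from the plus strand of the Release 6 reference (dm6). Capitals would mark the GA-rich and CAGTG-holding words described further on, on either strand, and none of these windows holds one.
Ugalt (chrX:2703846-2703946): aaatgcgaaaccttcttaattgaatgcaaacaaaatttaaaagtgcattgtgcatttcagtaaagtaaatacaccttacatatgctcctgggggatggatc
ph-p (chrX:2137297-2137397): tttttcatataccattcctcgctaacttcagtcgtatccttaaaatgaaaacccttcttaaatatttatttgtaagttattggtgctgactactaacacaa
CG32772 (chrX:4910310-4910410): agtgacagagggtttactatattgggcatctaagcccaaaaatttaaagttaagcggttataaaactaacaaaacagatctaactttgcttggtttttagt
lncRNA:CR44619 (chrX:12751387-12751487): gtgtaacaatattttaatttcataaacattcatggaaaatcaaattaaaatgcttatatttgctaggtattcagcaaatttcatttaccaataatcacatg

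A second set shows the word ACAGTGG, in capitals, with 30 bases on each side, at 7 of the strongest X arm peaks that hold it within 100 bp of the summit. Each is written along the strand on which the word reads ACAGTGG.
NFAT (chrX:13640405-13640471, plus strand): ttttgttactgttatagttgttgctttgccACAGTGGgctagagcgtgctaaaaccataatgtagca
norpA (chrX:4325034-4325100, minus strand): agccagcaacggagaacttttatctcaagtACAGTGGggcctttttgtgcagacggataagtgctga
CHES-1-like (chrX:7706872-7706938, plus strand): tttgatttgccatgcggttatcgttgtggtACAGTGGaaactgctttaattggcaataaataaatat
CG15717 and MFS10 (chrX:13131385-13131451, minus strand): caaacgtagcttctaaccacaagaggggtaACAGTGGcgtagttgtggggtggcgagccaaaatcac
CG17896 (chrX:494023-494089, plus strand): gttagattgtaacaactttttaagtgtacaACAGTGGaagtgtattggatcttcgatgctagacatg
ph-p, second peak (chrX:2137798-2137864, plus strand): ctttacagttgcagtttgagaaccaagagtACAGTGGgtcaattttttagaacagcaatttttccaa
Hr4 (chrX:1963832-1963898, plus strand): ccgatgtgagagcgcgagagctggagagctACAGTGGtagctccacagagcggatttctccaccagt

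The strongest X site lay just upstream of Ugalt, which encodes a transporter of UDP-galactose and faces eIF2Bbeta, a subunit of a translation initiation factor. At this site (chrX:2703772-2703997) the signal value, the authors' own score per peak on a scale that is not stated, was 300.7 in replicate 1 and 401.3 in replicate 2. In the pooled list it was 700.6, and the peak ranked first in all 3 lists. The summit lay at −44 bp from the transcription start site (TSS, with negative values upstream). The second site lay inside ph-p, a gene of the Polycomb group of chromatin repressors, at −492 bp from its nearest TSS (chrX:2137247-2137462). Its signal value was 216.4 in replicate 1, 265.0 in replicate 2 and 484.6 in the pooled list. A second ph-p peak (chrX:2137756-2138039) had its summit 551 bp away and a pooled signal value of 158.6. Both ph-p peaks were in both replicates' own thresholded lists.

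The third site of the X arm lay in an intron of CG32772 (chrX:4910294-4910462), 1258 bp downstream of the TSS. Its signal value was 169.1 in replicate 1, 186.0 in replicate 2 and 357.5 in the pooled list. The fourth lay inside lncRNA:Vinr, a long non-coding RNA gene, at −430 bp from the TSS of lncRNA:CR44619 (chrX:12751356-12751504). It had 129.8 in replicate 1, 203.6 in replicate 2 and 324.3 in the pooled list. A further peak in an exon of lncRNA:CR44619 (chrX:12752318-12752411), 956 bp from it, had a pooled signal value of 227.4 and was also in both replicates' lists. Weaker peaks with pooled signal values of 72.8, 97.1 and 66.2 lay around the same pair of non-coding genes. None of these was in replicate 1's list, and the one of 72.8 was in neither replicate's list. At the one of 66.2, the 31 bases at the summit occurred 2 times in the reference. Those 4 highest sites were the only X arm peaks among the first 20 of either replicate's list.

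Further X arm sites of high pooled signal lay mainly within genes. The first 20 named below are the 20 X arm peaks of highest pooled signal, with the X contig peaks left out. CG3726, whose promoter faces Shmt, a gene of one-carbon metabolism, had a peak in its body (278.6). Intron peaks lay at NFAT, a transcription factor (244.7), and norpA, the phospholipase C of fly vision (230.7). Gapdh2, a glycolytic enzyme (221.7), and Atf3, a bZIP transcription factor (221.5), had promoter peaks. Intron peaks lay in Tlk, the tousled-like kinase (220.3), Raf, a kinase of the growth factor receptor pathway (215.8), and CHES-1-like, a forkhead gene (208.6). Promoter peaks at MFS10 (204.1), dnc, a cAMP phosphodiesterase (194.8), moody, a receptor of the blood-brain barrier (174.0), TRAM, of the protein translocation channel (173.1), and CG3009 (171.9) were also among the first 20, as was an intergenic peak near CG17896 (184.1). Every one of the first 20 peaks was in both replicates' thresholded lists. They were chosen by pooled signal among peaks past the IDR threshold, so this presence is not independent of the choice. By class, 10 lay at promoters, 8 in introns, 1 in a non-coding exon and 1 between genes.

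**Figure D1:**
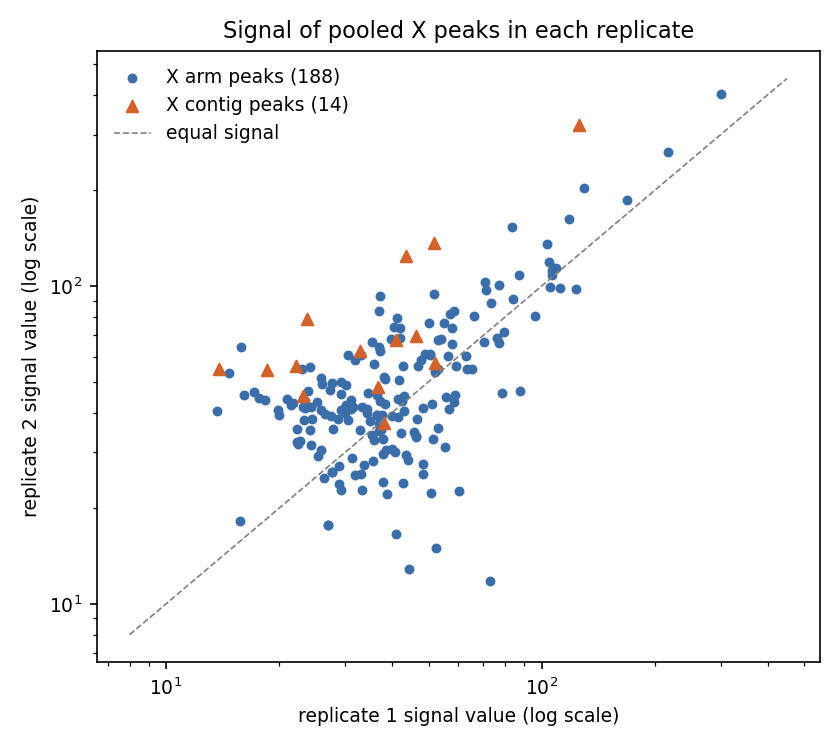
Signal values of pooled X peaks in replicate 1 (x axis) and replicate 2 (y axis), both on log scales, for 188 X arm peaks (circles) and 14 X contig peaks (triangles) with a candidate in both. The dashed line marks equal signal. The Ugalt peak is at the upper right, and 13 of the 14 contig peaks lie above the line.

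Read against all candidates, X candidates passed more often than autosomal ones in the pooled list. A candidate is any entry of the ranked list, and it passed when its IDR, the irreproducible discovery rate that scores whether a rank recurs across inputs, was 0.01 or less. Over the X and the autosomal arms, 0.651% of pooled candidates were called. Among candidates that were called or had missed the threshold, 217 of 25801 on the X were called (0.841%), against 727 of 119199 on the autosomal arms (0.610%, odds ratio 1.38, two-sided Fisher's exact p = 4.86e-05). On the X arm alone the share was 0.779% (Fisher's exact p = 0.00304). Left out of these tests were candidates past the threshold yet absent from the thresholded list, 3 on the X and 39 on the autosomal arms. Per length of sequence, the X arm held 8.33 pooled peaks per Mb and the autosomal arms 6.59. Neighbouring peaks can share fragments, and the p-values of these tests cover the lists, never the variation from one embryo collection to another.

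The difference passed in replicate 2's own list and not in replicate 1's, and the gap between the replicates was not tested. The called background was 0.386% in replicate 1, 0.529% in replicate 2 and 0.482% in the conservative list, which compares the replicates. In replicate 1's own list, 0.416% of X candidates passed, against 0.380% of autosomal ones (odds ratio 1.09, Fisher's exact p = 0.477). In replicate 2's own list, 0.874% of X candidates passed, against 0.461% of autosomal ones (odds ratio 1.90, Fisher's exact p = 1.05e-10). The conservative list gave 0.595% for the X and 0.457% for the autosomal arms (Fisher's exact p = 0.00545). In counts, the X held 78 of 427 peaks of replicate 1 (18.3%), 155 of 569 of replicate 2 (27.2%) and 149 of 663 conservative peaks (22.5%). X contigs supplied 3 of the X peaks in replicate 1 and 38 in replicate 2. On the arms alone, replicate 1 had 3.19 peaks per Mb on the X and 3.16 on the autosomes, and replicate 2 had 4.97 on the X and 3.75 on the autosomes. Whether depth or the control file differed between the replicates is not given in the sources used here.

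Replicate support of the pooled peaks was close on the X and the autosomes. Of the 217 X peaks, 59 met a peak in each replicate's thresholded list (27.2%), against 204 of 727 autosomal peaks (28.1%, odds ratio 0.957, Fisher's exact p = 0.863). On the X arm 56 peaks had both, 55 replicate 2 alone, 17 replicate 1 alone and 68 neither. Seen from the replicates' own lists, 59 of replicate 1's 78 X peaks (75.6%) overlapped a replicate 2 peak, while 59.3% of its autosomal peaks did. Of replicate 2's 155 X peaks 59 (38.1%) overlapped a replicate 1 peak, and of its autosomal peaks 49.5%. On the X arm alone it was 56 of replicate 2's 117 peaks (47.9%), and on X contigs 3 of 38 (7.89%). Across the 188 X arm peaks with a candidate in both, Pearson's r between the replicates' signal values was 0.874 and Spearman's rho 0.481, both across peaks that were selected for repeating ranks.

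The X contig peaks came mainly from replicate 2, and this was not tested. Of 21, 3 were in both replicates' lists, 14 were in replicate 2's alone, none in replicate 1's alone and 4 in neither. Where both replicates had a candidate, the log2 ratio of replicate 2 to replicate 1 signal had a median of 1.15 on the contigs (14 peaks). The X arm median was 0.25 (188 peaks), and the autosomal one 0.18 (683 peaks). The strongest contig peak (X_DS484057v1_random, positions 613 to 717) had a signal value of 126.2 in replicate 1, 321.2 in replicate 2 and 436.0 in the pooled list, where it ranked seventh. The next, on X_DS484633v1_random at 34 to 317, had 51.6 in replicate 1, 136.8 in replicate 2 and 179.5 in the pooled list. The remaining 19 had pooled signal values of 4.73 to 167.1. Of replicate 2's own 38 contig peaks, on 36 contigs, 17 had no candidate in replicate 1. The sequences and genes of these contigs were not analysed here.

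**Figure D2:**
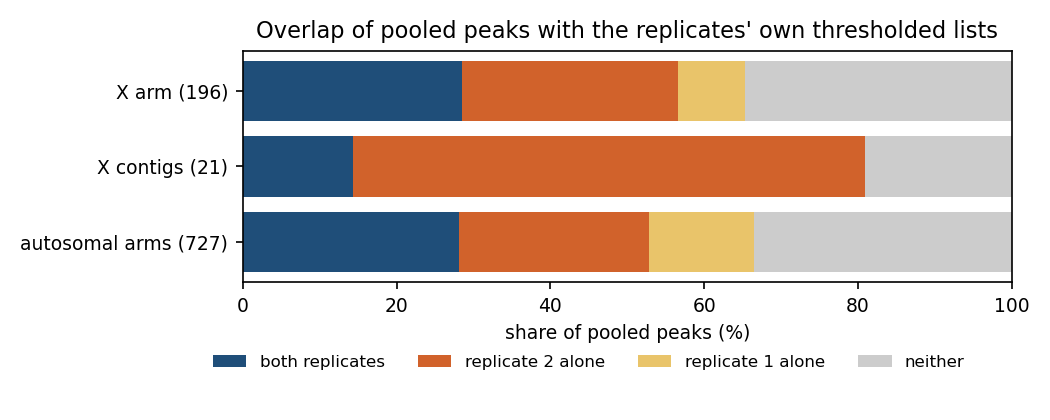
Share of pooled peaks (x axis, percent) that overlap a thresholded peak of both replicates, of replicate 2 alone, of replicate 1 alone or of neither, for the X arm, the X contigs and the autosomal arms, with the number of peaks in parentheses. Both replicates held 28.6% of X arm peaks, 14.3% of X contig peaks and 28.1% of autosomal peaks.

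No difference in signal height between the X and the autosomes passed the test. Pooled signal values had a median of 77.4 on the X arm (interquartile range 65.9 to 112.1) and 78.8 on the autosomal arms (63.7 to 111.3). Of the X peaks, 102 of 217 (47.0%) lay above the median of all arm peaks, against 370 of 727 autosomal ones (50.9%, odds ratio 0.856, Fisher's exact p = 0.353). The lowest values lay beside stronger sites. At CG5254, dnc, spoon and CG4829, peaks of 3.95, 12.3, 10.8 and 19.1 lay 200 to 206 bp from a higher one. The last X peak inside the threshold (chrX:3868535-3868818, at CG2930 and yin) had a signal value of 80.6 and an IDR of 0.00996. The first X candidate outside it, on a contig, had 52.9 and 0.0101.

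X peaks lay in introns more often, and between genes less often, than autosomal peaks. Introns held 86 of the 196 X arm summits (43.9%), against 223 of 727 autosomal ones (30.7%, odds ratio 1.77, adjusted p = 0.00223, Fisher's exact test with Benjamini-Hochberg adjustment over 7 classes). Intergenic sequence held 9 X summits (4.59%), against 96 autosomal ones (13.2%, odds ratio 0.316, adjusted p = 0.00223, Fisher's exact test). Promoters, meaning summits within 500 bp of a TSS, held 91 X summits (46.4%), against 376 autosomal ones (51.7%, adjusted p = 0.280, Fisher's exact test). Failed candidates, those past no threshold, already differed between the chromosomes in the same 2 classes. Their intron share was 42.9% on the X and 36.1% on the autosomal arms, and their intergenic share was 18.6% on the X and 24.8% on the autosomal arms. The intron share of X peaks was thus near that of failed X candidates, while the promoter share was not (46.4% of X peaks, 12.9% of failed X candidates). The intron difference did not pass in the conservative list (40.3% on the X, 29.4% on the autosomal arms, adjusted p = 0.0746, Fisher's exact test) or in replicate 1's list (38.7% on the X, 27.5% on the autosomal arms, adjusted p = 0.483, same exact test). The intergenic difference did not pass in those lists either, with adjusted p-values of 0.0746 and 0.696 in the same exact test. Both differences passed in replicate 2's own list. Introns there held 41.9% of X and 26.3% of autosomal summits (adjusted p = 0.0132, Fisher's exact test). Intergenic sequence held 5.13% of X and 14.7% of autosomal summits (adjusted p = 0.0151, same exact test). Both also passed in the pooled list with a TSS distance of 200 or 1000 bp. At an IDR of 0.001 neither passed, with adjusted p-values of 0.326 for introns and 0.926 for intergenic sequence. With promoters taken within 200 bp of a TSS, they held 26.5% of X summits and 37.1% of autosomal ones (adjusted p = 0.0126, Fisher's exact test).

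**Figure D3:**
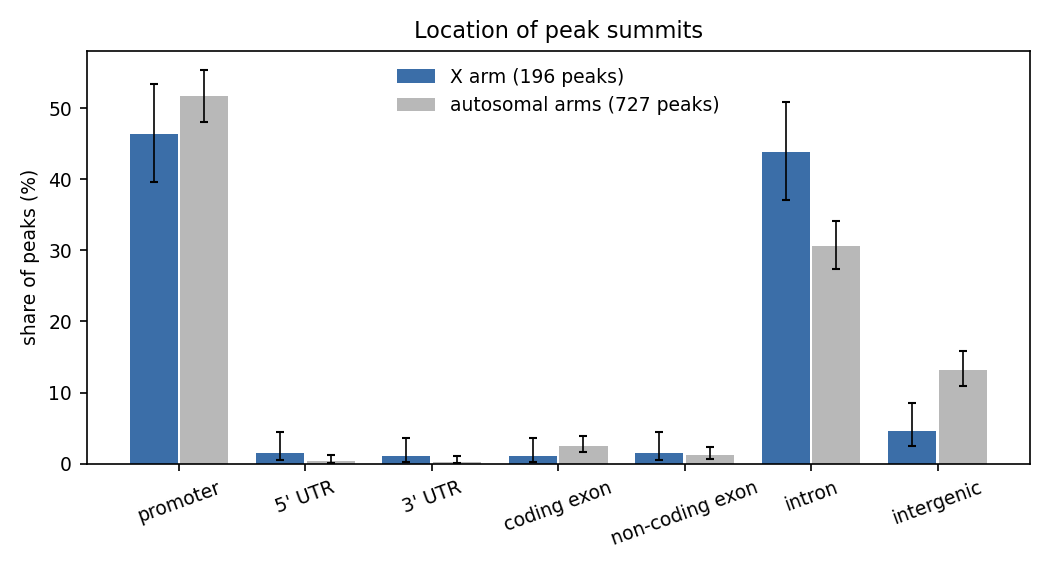
Share of peak summits (y axis, percent) in each of 7 location classes for the 196 X arm peaks (left bars) and the 727 autosomal peaks (right bars) of the pooled list, with 95% Wilson intervals that cover counting error only. Introns held 43.9% of X summits and 30.7% of autosomal ones, and intergenic sequence held 4.59% of X summits and 13.2% of autosomal ones.

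The distance of X intron peaks to the nearest TSS ran between 521 and 29994 bp. They were in both replicates' lists in 20 of 86 cases (23.3%), and X promoter peaks in 29 of 91 (31.9%). Their median signal values were 75.8 for introns and 80.6 for promoters.

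X promoter summits lay mostly upstream of the start site. Upstream were 75 of 91 on the X (82.4%), against 297 of 376 on the autosomal arms (79.0%, odds ratio 1.25, Fisher's exact p = 0.562). Failed X promoter candidates were upstream in 40.9% of cases. The median position was −167 bp on the X (interquartile range −256 to −53) and −102 bp on the autosomal arms (−182 to −15), a difference that was not tested. At X promoter peaks the nearest gene was protein-coding in 83 cases and non-coding in 8.

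**Figure D4:**
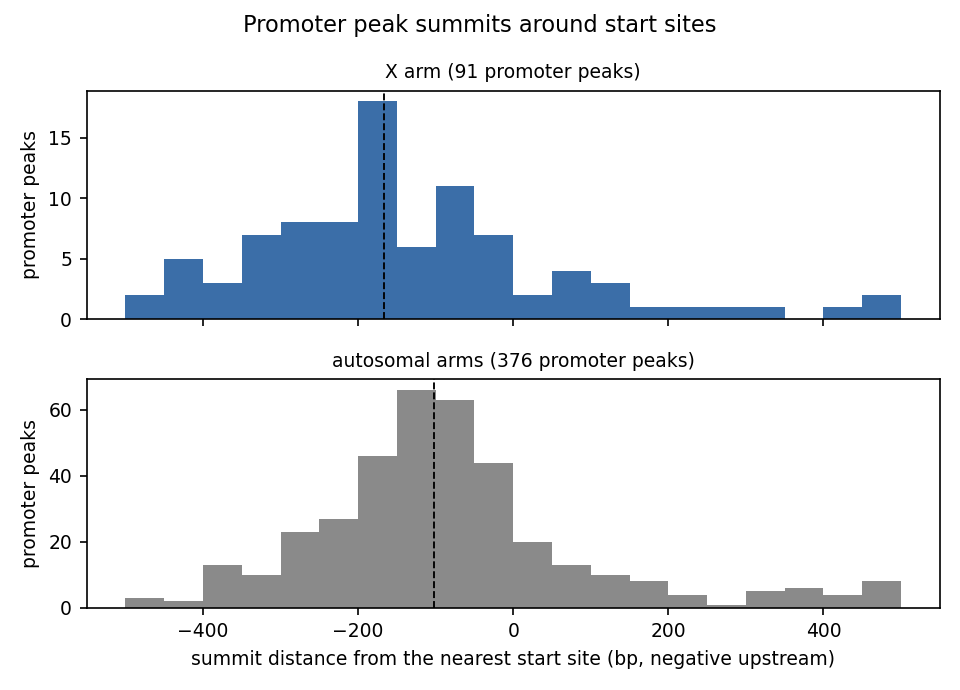
Summit position of promoter peaks relative to the nearest TSS (x axis, bp, negative upstream, 50 bp bins; y axis, number of peaks) for the X arm above and the autosomal arms below, with the median as a dashed line. The medians were −167 bp on the X arm and −102 bp on the autosomal arms.

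A smaller share of X than of autosomal promoter peaks had a head-to-head promoter at the nearest TSS. A head-to-head promoter was one where another gene's TSS, on the opposite strand and upstream, lay within 1000 bp. The summit was not required to lie between the facing start sites. It was found at 25 of 91 X promoter peaks (27.5%), against 161 of 376 autosomal ones (42.8%, odds ratio 0.506, Fisher's exact p = 0.00846). Among protein-coding genes such a facing start was about as common on both, at 39.0% of 2196 X genes and 39.7% of autosomal genes. Among failed promoter candidates it was 24.2% on the X and 24.3% on the autosomal arms. The difference passed in replicate 2's list (25.5% on the X, 43.3% on the autosomal arms, p = 0.0148, Fisher's exact test). It did not pass in replicate 1's (26.3% on the X, 40.2% on the autosomal arms, p = 0.145, Fisher's exact test) or in the conservative list (31.9% on the X, 42.7% on the autosomal arms, p = 0.104, Fisher's exact test). Besides Ugalt and eIF2Bbeta, the X pairs of this kind with the highest signal were Swt1 and scu, a mitochondrial dehydrogenase gene (132.0), asRNA:CR44429 and gce, a juvenile hormone receptor gene (128.3), and bves and Stt3A, an oligosaccharyltransferase subunit (119.5).

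The sequence within 100 bp of the summit was richer in G and C on the X. Its median GC content was 38.3% on the X arm and 36.3% on the autosomal arms, and 59.7% of X peaks lay above the median of all arm peaks, against 46.4% of autosomal ones (odds ratio 1.71, Fisher's exact p = 0.000961). Failed candidates had a median of 46.8% on both. The GC difference passed in replicate 2's own list (62.4% on the X, 43.7% on the autosomal arms, Fisher's exact p = 0.000509). It also passed in the conservative list (63.3% on the X, 45.1% on the autosomal arms, Fisher's exact p = 0.000179). The same held at an IDR of 0.001 and with a window of 250 bp (Fisher's exact p = 0.00438 and 0.00367). It did not pass in replicate 1's own list, at 56.0% on the X and 48.4% on the autosomal arms (Fisher's exact p = 0.254). The difference did not hold in a narrower window either: within 50 bp of the summit 46.4% of X peaks and 47.6% of autosomal peaks lay above the median (Fisher's exact p = 0.809).

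Of 7 words searched on both strands in the same window, none differed past the threshold between the X and the autosomes. The word ACAGTGG, shown above at NFAT, norpA and others, was in 37 of 196 X peaks (18.9%), against 12.5% of autosomal peaks (odds ratio 1.63, adjusted p = 0.122, Fisher's exact test with Benjamini-Hochberg adjustment over 7 words). It was in 3.01% of 24964 failed X candidates. On the X it was in 23 of 86 intron peaks (26.7%) and 11 of 91 promoter peaks (12.1%). It was also in 6 of the 20 strongest X arm peaks. The median distance of its 43 occurrences to the summit was 60 bp, with 3 within 20 bp. CAGTGTA, which shares the letters CAGTG with it, was in 8.67% of X peaks and 8.80% of autosomal peaks (adjusted p = 1, Fisher's exact test), and in 1.91% of failed X candidates. Both words had stood out in an earlier analysis of these same peaks, so their presence here is not independent. With a window of 250 bp ACAGTGG was in 32.1% of X peaks and 19.4% of autosomal peaks (adjusted p = 0.00128, Fisher's exact test).

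GA-rich sequence was searched because elements of this kind are what the dosage compensation machinery binds. GAGAG was in 25.5% of X peaks, 24.5% of autosomal peaks and 23.2% of failed X candidates. The longer GAGAGAGA, which contains it, was in 8 X peaks (4.08%), 1.38% of autosomal peaks (odds ratio 3.05, adjusted p = 0.122, Fisher's exact test) and 1.81% of failed X candidates. Within 250 bp it was in 16.8% of X peaks and 7.84% of autosomal peaks (adjusted p = 0.00128, Fisher's exact test). The strongest of the 8 lay near CG12643 with a pooled signal value of 146.0, and its 201 bases around the summit are shown with the run in capitals (plus strand).
CG12643 (chrX:10265802-10266002): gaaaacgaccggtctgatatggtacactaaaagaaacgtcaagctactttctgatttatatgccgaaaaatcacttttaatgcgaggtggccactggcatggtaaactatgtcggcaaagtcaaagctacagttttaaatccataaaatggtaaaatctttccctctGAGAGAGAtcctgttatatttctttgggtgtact

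The other words were rare. TATCGATA, which holds the core of the DREF site, was in 3 X peaks (1.53%) and 2.75% of autosomal peaks. GGTCACACT was in 1 X peak (0.510%) and 1.10% of autosomal peaks, and CACACACA in 1.02% of X peaks, 2.61% of autosomal peaks and 6.75% of failed X candidates. The 31 bases at the summit occurred once in the whole reference for 195 of the 196 X arm peaks.

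Peaks were denser in the first 10 Mb of the X arm. That stretch held 124 pooled peaks of 11600 candidates (1.07%), the next 10 Mb held 68 of 11014 (0.617%), and the remainder beyond 20 Mb held 4 of 2549 (0.157%). These stretches held 943, 1058 and 195 protein-coding genes in the same order. Beyond 20 Mb, 3 further candidates of the pooled ranked list, 1 of replicate 1's and 8 of replicate 2's had an IDR at or under the threshold and were absent from the thresholded lists. They are counted among the candidates and not among the peaks of that stretch. Replicate 1 had 48, 25 and 2 peaks in the 3 stretches, and replicate 2 had 73, 39 and 5. Of the 20 strongest X arm peaks, 15 lay in the first 10 Mb. The densest 1 Mb bin, from 2 to 3 Mb, held 21 peaks, among them those of Ugalt, ph-p, Raf and moody. The widest gap between neighbouring summits was 1207237 bp, from 19847100 to 21054337. The last summit of the arm lay at 21367874, and the bins from 22 Mb to the arm's end held 0 pooled peaks. These positions are a description and were not tested.

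Among genes, 91 of the 2196 protein-coding genes of the X had a pooled summit within 500 bp of a TSS (4.14%), against 473 of 11749 autosomal genes (4.03%). The dosage compensation list had 0 of its 3 X members bound: the best promoter candidate of roX1 had a signal value of 25.1 and that of mof 22.4, and roX2 had none. Among 6 counted genes of the sex signal, 0 were bound. Sxl, one of them, had a peak inside the gene (61.0) and a promoter candidate of 64.4 that missed the threshold with an IDR of 0.0153. The peak inside Sxl was in neither replicate's own list, with 34.1 in replicate 1 and no candidate in replicate 2. The achaete-scute genes of neural fate were bound in 0 of 4 cases and visible marker genes in 0 of 17. Of those markers, white (49.4) and g (58.2) had a peak inside the gene, away from a TSS. Neither of these peaks was in either replicate's own list. Suppressor and coactivator genes were bound in 0 of 4 cases and mitochondrial ribosomal protein genes in 0 of 11. CkIIbeta, the regulatory subunit of casein kinase II and its X-linked gene, had a best promoter candidate of 19.1 and no peak. 

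Over all lists, 7 of 79 different X members were bound in the pooled list, beside 91 of 2196 protein-coding X genes (4.14%). Of these 7, 4 were cytoplasmic ribosomal protein genes. In the patterning list 1 of 14 was bound, sgg, the glycogen synthase kinase of Wnt signalling, with 48.9 in replicate 1, 61.0 in replicate 2 and 99.3 in the pooled list. N, the Notch receptor, had a peak inside the gene (95.3), and sog, a BMP inhibitor, had 2 (the higher at 68.2). The peak inside N was in replicate 1's list alone, and the higher one inside sog in both. In the polarity list 1 of 5 was bound, dlg1, a scaffold of the lateral membrane, at 79.0, which was in replicate 2's list and not in replicate 1's. baz, the fly Par-3, had a peak inside the gene (126.8) that was in both replicates' lists. In other lists, par-6 was bound in the conservative list (65.1) and sdt in replicate 1's (41.0). In the Polycomb list ph-p was bound and its neighbour ph-d was not, with a best candidate of 23.8. Cytoplasmic ribosomal protein genes were bound in 4 of 15 cases (26.7%): RpS19a at 71.2, RpL22 at 70.1, RpS14b at 65.2 and RpS10b at 60.8. None of these 4 was in either replicate's own list. RpS28b was bound in the conservative list (80.2) and not in the pooled one.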

How the data were processed

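Chromatin immunoprecipitation with sequencing was done on 2 biological replicates. The authors deposited 8 peak lists on dm6, ranked and thresholded. Per the deposited file records, alignments and a control file went into each. Which aligner and peak caller were used is not given in the sources used here. The signal is the authors' value per peak, the score is the authors' scaled IDR score, and a further deposited column gives the −log10 of the global IDR. Read depth is unknown, so no depth-based interval is given. Signal values were set side by side between replicates on the assumption that both were scored alike.

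Summits were placed on the Release 6 reference and Ensembl genes (BDGP6.54, release 115). Transposable elements were left out as start sites. Classes were assigned in the order promoter, 5' UTR, 3' UTR, coding exon, non-coding exon, intron and intergenic. X peaks were compared with autosomal peaks by two-sided Fisher's exact tests. The tests were tried on simulated independent draws, which leave out neighbouring peaks that share fragments. Peaks overlapped when they shared at least 1 bp. Signals of a replicate are those of its highest overlapping candidate. The members, words and gene lists were chosen with earlier results of these data known. Named genes were those nearest the 20 X arm peaks of highest pooled signal, the bound members of each list and X contig peaks. One gene named by this rule is not reported here. Alternatives were the other lists, an IDR of 0.001, other distances and windows, and, chosen after seeing the data, 1 peak per 1000 bp. Software was scipy 1.17.1, pandas 2.3.3 and numpy 2.4.6 under Python 3.11.15, with matplotlib 3.10.9 for plots.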

Additional observations from a re-analysis of the deposited data

Results flagged for a closer look

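Some candidates had an IDR at or under the threshold in the pooled ranked list and were absent from its thresholded list. No test counted them as peaks or as failed candidates. They stayed among the candidates of the called background and of the stretches along the X. On the X arm there were 3. The highest had a signal value of 236.0 (chrX:23222245-23222528), with 28SrRNA-Psi:CR45859, a ribosomal RNA pseudogene, as its nearest gene. The others had 113.4 (chrX:22373198-22373481, nearest CG14621) and 72.1 (chrX:23402753-23403036, nearest 2SrRNA:CR45864). On the autosomal arms, 39 of the 766 candidates at or under the threshold were absent, against 3 of 220 on the X. On the Y and on unplaced contigs of no chromosome, all 26 were absent. All 21 on X contigs were kept. The cause was not tested.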

How the results depend on the processing

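Of 61 alternatives to the main results, 41 kept their direction and side of the threshold, or a count within 1.5 times. The values here are X shares. In the conservative list the intron share was 40.3%, the intergenic share 5.04% and the head-to-head share 31.9%, none past the threshold, and 53.0% of X peaks lay above the median signal, which turned that direction. At an IDR of 0.001 the intron share was 37.5%, the intergenic share 7.14% and the head-to-head share 28.6%, none past it, and replicate support was 87.1% on the X and 79.8% on the autosomal arms, a turned direction. Replicate support also turned on the X arm without contigs (28.6%). With a TSS distance of 200 bp the promoter share was 26.5%, now past the threshold, and the upstream share 80.8%, a turned direction. The GC share turned to 46.4% with a window of 50 bp. With 1 replicate's own list, the ranges were 0.416 to 0.874% for candidates passing, 49.7 to 55.1% for signal (where replicate 1's list, with 55.1% on the X and 48.7% on the autosomal arms, turned the direction), 38.7 to 41.9% for introns, 5.13 to 6.67% for intergenic, 25.5 to 26.3% for head-to-head and 56.0 to 62.4% for GC. Bound list members numbered 3 in each replicate's list and 7 in the pooled list. Directions also turned in 1 replicate's list, with no call, for TATCGATA (1.71 to 2.67%), GGTCACACT (0 to 1.33%) and CAGTGTA (7.69 to 9.33%), and elsewhere for CAGTGTA with windows of 50 bp (3.06%) and 250 bp (13.8%), CACACACA with 250 bp (16.3%), and non-coding exons with a TSS distance of 1000 bp (0.510%) and with 1 peak per 1000 bp (0.546%). The causes were not tested. No paired analysis was possible because there is 1 group.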
